A study of Mus musculus with 15 samples.

Results

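The genes described here are 31 genes that mark astrocytes, read in bulk RNA of the mouse thalamus. They were given as a fixed list of symbols, chosen with earlier results of these data known. All 31 were found among the 25080 genes listed for each library. Astrocytes are the glial cells that take up the glutamate and potassium released by neurons, wrap blood vessels with water-permeable endfeet, pass small molecules to each other through gap junctions and secrete lipid-carrying proteins. Glutamate is cleared by the transporters Slc1a2 (GLT-1) and Slc1a3 (GLAST) and turned into glutamine by Glul, while Aqp4, Mlc1, Hepacam and the pump subunit Atp1b2 sit in astrocyte membranes, many of them at the endfeet. Cocaine acts first on monoamine transporters of neurons, and astrocytes meet its effects through the transmitters and ions that neurons release.

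Thalami were dissected from mice aged 2 to 4 months. All mice had 3 days of saline injections, followed by 5 days of cocaine at 20 mg/kg or of saline. The cKO mice carried a loxP-flanked Maged1, an X-linked gene of the MAGE family, together with Cre recombinase driven by the Vglut2 promoter, so that the deletion was aimed at glutamatergic Vglut2 neurons and not at astrocytes. Control mice are titled Maged1 WT and mostly tagged Maged1 Loxp, and the mice were of a C57Bl/6 background. The tissue was not sorted, so the RNA of every cell type of the dissected piece is in each library. Of the libraries analysed here 4 are labelled control with saline, 4 control with cocaine, 4 cKO with saline and 2 cKO with cocaine. Values are TPM (a share of all transcripts of the library, corrected for transcript length) divided by a trimmed-mean (TMM) factor for each library and are called scaled TPM. Fold changes are differences of log2(scaled TPM + 0.5) with the standard error (SE), tested with limma over the 13471 genes that reached 1 TPM in 3 or more libraries and adjusted by the method of Benjamini and Hochberg. A gene passed at an adjusted p under 0.05.

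Maged1 (chrX:94535474-94542143, GRCm38, minus strand) was read in every library as a check of the labels. It was at 152, 167, 150.3 and 152 scaled TPM in control saline and at 78.4, 76.8, 68.9 and 64.9 in cKO saline. In the libraries labelled control cocaine it was at 58.3, 87.7, 77.2 and 70.1, and in those labelled cKO cocaine at 153 and 173. The saline libraries thus followed their titles, and the cocaine libraries went against theirs. Fold changes of Maged1 were -1.10 for cKO against control after saline (SE 0.10, adjusted p = 0.00148, limma) and 1.16 after cocaine (SE 0.13, adjusted p = 0.00416). Groups are named below as labelled. Every comparison within a genotype label therefore sets cocaine libraries beside saline libraries of an unlike Maged1 level. For the changes given in control and in cKO, the genes that passed in both and the interaction, cocaine and this difference in Maged1 cannot be told apart. The contrast of cocaine against saline averaged over both genotypes does not depend on which cocaine group carries which genotype label. Title and genotype tag disagree for 4 of the saline libraries, and the title was followed. They are control saline replicates 3 and 4 and cKO saline replicates 1 and 2, whose Maged1 levels went with their titles and against their tags. In all cocaine libraries title and tag agree, and Maged1 went against both.

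Scaling weighs on every direction given here. TMM factors were 1.07 to 1.20 in the 8 saline and 0.810 to 0.946 in the 6 cocaine libraries, so that in the TPM as deposited the median of all tested genes lay 0.34 lower on the log2 scale after cocaine, against -0.00 after scaling. Changes are therefore changes relative to the other genes of the same library. The thalamic genes Tcf7l2, Prkcd and Slc17a6 were at 74.4 to 123, 93.5 to 243 and 69.2 to 104 scaled TPM over the 14 libraries. Marker lists of neighbouring structures varied far more than astrocyte genes did. The mean log2 level of 8 hypothalamus markers, relative to the mean of all libraries, ran from 0.87 to 2.43 in control saline and from -2.17 to -0.15 in control cocaine, that of ependymal and motile cilia genes was -1.44 in control cocaine replicate 4 and -1.40 in cKO saline replicate 1, and that of 6 habenula genes ran from -1.79 to 1.86. The mean of the 31 astrocyte genes stayed between -0.12 and 0.11. The part of these differences in the results below was not tested.

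**Figure D1:**
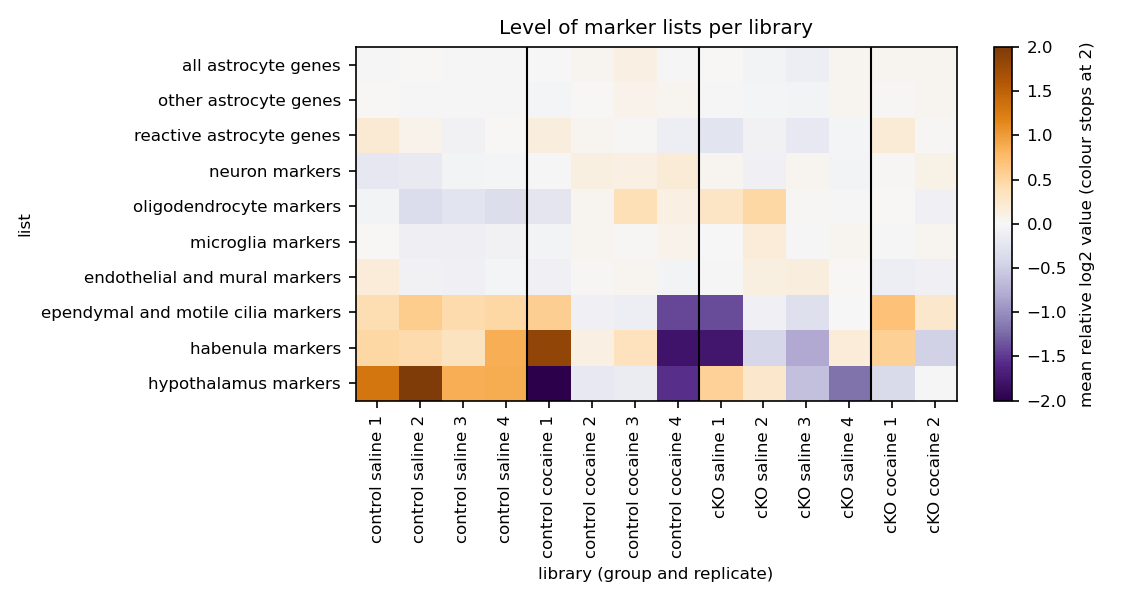
Mean log2 level of marker lists (vertical axis) in each of the 14 libraries (horizontal axis), relative to the mean of all libraries, with colours that stop at 2 and black lines between the groups. The astrocyte rows stay near 0 (-0.12 to 0.11 for the 31 genes), while the ependymal, habenula and hypothalamus rows differ by library, with control saline highest for hypothalamus markers (0.87 to 2.43).

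For some of the genes that the results turn on, the promoter window of 300 bases that RefSeq places by its own transcript start (GRCm38.p6) is printed 5′ to 3′ for a gene that rose (Agt), one whose cocaine difference depended on the genotype label (Slc1a3), one that rose in both genotypes (Hepacam) and one that fell (Mlc1). The windows are chr8:124569657-124569956 (minus strand), chr15:8710758-8711057 (minus strand), chr9:37367356-37367655 (plus strand) and chr15:88978504-88978803 (minus strand). The windows of Agt and Slc1a3 lie mostly before the gene start that GENCODE gives, whereas those of Hepacam and Mlc1 lie inside the gene as GENCODE annotates it. Capitals mark letters that match the STAT palindrome TTCNNNGAA, the kind of element through which STAT3 acts on astrocyte genes, or the NFI site TTGGCA, searched on both strands.
Agt: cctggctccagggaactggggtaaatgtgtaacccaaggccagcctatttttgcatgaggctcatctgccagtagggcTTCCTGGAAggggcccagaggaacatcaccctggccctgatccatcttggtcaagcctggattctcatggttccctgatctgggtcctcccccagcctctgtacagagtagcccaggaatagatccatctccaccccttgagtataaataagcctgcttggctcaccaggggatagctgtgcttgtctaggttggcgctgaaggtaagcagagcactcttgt
Slc1a3: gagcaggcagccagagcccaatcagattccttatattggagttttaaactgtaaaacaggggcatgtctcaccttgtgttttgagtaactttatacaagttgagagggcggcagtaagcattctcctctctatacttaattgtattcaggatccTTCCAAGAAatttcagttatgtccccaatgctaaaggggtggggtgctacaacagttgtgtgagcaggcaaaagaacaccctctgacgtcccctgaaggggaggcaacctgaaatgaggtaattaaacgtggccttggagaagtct
Hepacam: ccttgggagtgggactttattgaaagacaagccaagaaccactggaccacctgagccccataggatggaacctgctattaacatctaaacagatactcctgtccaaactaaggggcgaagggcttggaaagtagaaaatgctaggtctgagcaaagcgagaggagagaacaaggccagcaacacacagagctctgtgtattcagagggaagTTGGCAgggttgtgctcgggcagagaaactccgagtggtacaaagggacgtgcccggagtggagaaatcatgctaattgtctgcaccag
Mlc1: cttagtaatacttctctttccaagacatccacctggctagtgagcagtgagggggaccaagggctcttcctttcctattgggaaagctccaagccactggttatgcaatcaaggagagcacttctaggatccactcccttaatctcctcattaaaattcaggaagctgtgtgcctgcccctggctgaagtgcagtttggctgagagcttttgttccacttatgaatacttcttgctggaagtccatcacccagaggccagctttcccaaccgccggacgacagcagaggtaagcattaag

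A promoter was found for 26 of the 31 genes. The STAT palindrome was in 7 of them (26.9%), Acsbg1, Agt, Aldoc, Gfap, Ntsr2, Slc1a3 and Slc7a11, against 9.55% of 27025 symbols with a promoter in the table. The NFI site was in 4 (15.4% against 16.1%), in Aldoc, Apoe, Hepacam and S100b. The SOX core ACAAAG was in 4 (15.4% against 21.0%) and the E-box CANNTG in 20 (76.9% against 75%). These are matches of letters, and the genes with a STAT match include Agt, Aldoc, Acsbg1 and Ntsr2, which rose in the averaged contrast on the scaled TPM, and Gfap, which did not pass in any contrast.

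The 31 genes were all measured, and all passed the filter. In control saline they ranged from the 32.4th percentile of the tested genes by level (Slc14a1, the urea transporter, mean 4.12 scaled TPM) to the 99.9th (Apoe, 622 scaled TPM). After Apoe the highest were Glul (309 scaled TPM), Clu (202), Slc1a2 (188), Aldoc (164) and Atp1b2 (143). Aldh1l1, which is widely used to mark all astrocytes, was at 13.9, and the transcription factor Sox9 at 8.75 scaled TPM. The 31 levels together summed to 2123 to 2389 scaled TPM in the 8 saline and to 2405 to 2733 in the 6 cocaine libraries, and Apoe alone made up 23% to 27.9% of that sum after saline and 29.2% to 30.9% after cocaine.

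**Figure D2:**
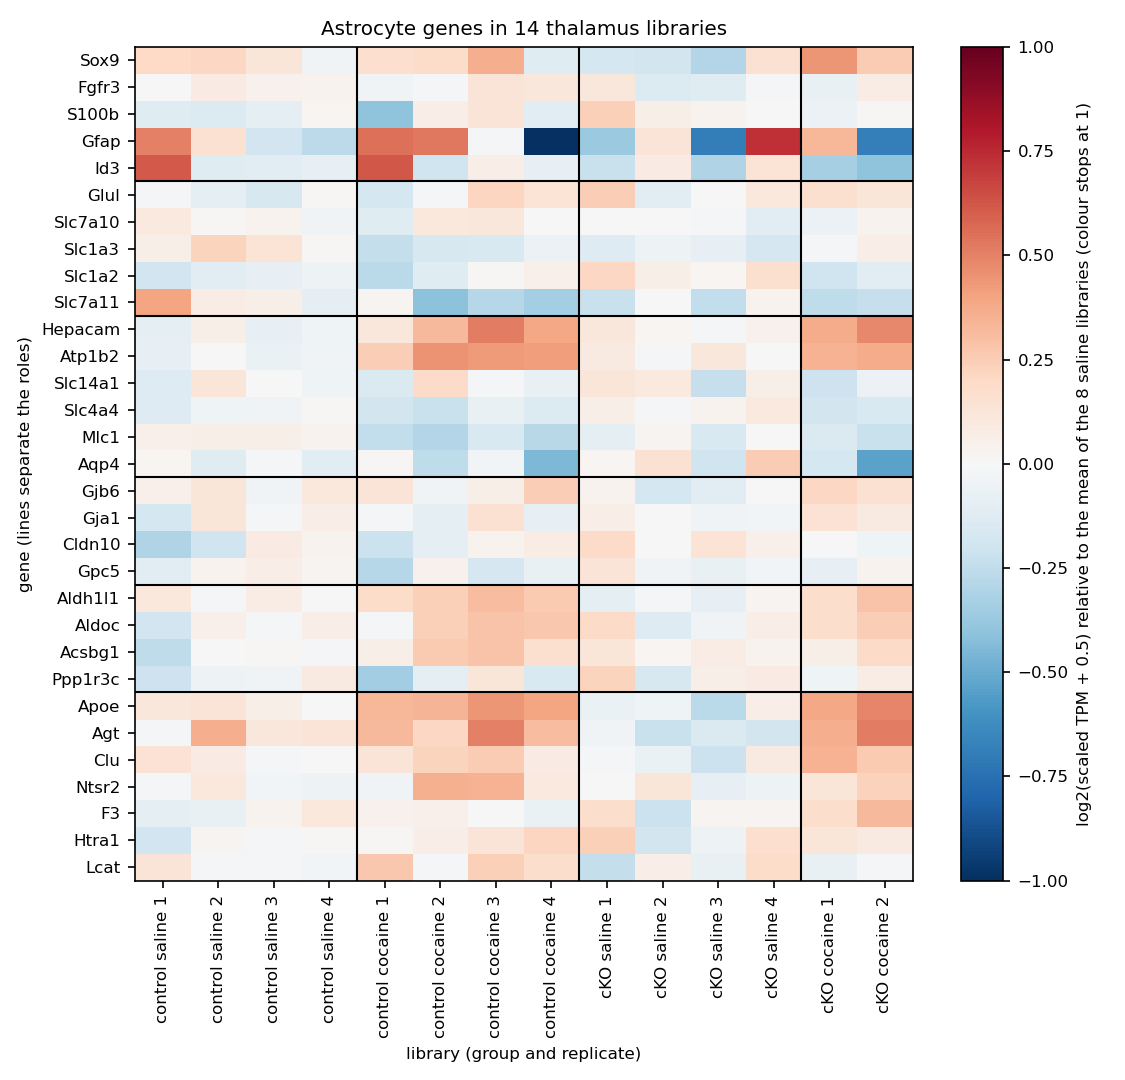
Each of the 31 genes (rows, grouped by role) in each library (columns), as log2(scaled TPM + 0.5) relative to the mean of the 8 saline libraries, with colours that stop at 1 and black lines between groups and roles. Hepacam, Atp1b2 and Apoe are red in all 6 cocaine columns and Mlc1 is blue in all of them on this scale (in the TPM as deposited the averaged changes of the first 3 are 0.02, 0.00 and 0.04), whereas Gfap and Id3 change from library to library inside each group.

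Averaged over the genotypes, 11 of the 31 genes rose after cocaine and 3 fell on the scaled TPM, while 0 were higher and 25 lower in the TPM as deposited. Over all tested genes the shares on the scaled TPM were 16.2% higher and 16.4% lower, and among astrocyte genes 35.5% and 9.68%. These shares do not apply to the TPM as deposited, where the median of all tested genes was itself -0.34. The shares of all tested genes that passed there are not reported here. The counts of 0 and 25 therefore do not set astrocyte genes apart from other genes. On the scaled TPM the genes that rose were Atp1b2, Apoe, Hepacam, Aldh1l1, Agt, Clu, Aldoc, Acsbg1, Sox9, Ntsr2 and Gjb6, by 0.14 to 0.41 on the log2 scale. Those that fell were Mlc1, Slc4a4 and Aqp4, with changes of -0.27 to -0.16. The median of the 31 fold changes was 0.05, beside -0.00 for all tested genes, and it was -0.01 with quantile normalization, -0.00 with GC content and length trends removed and -0.31 in the TPM as deposited. No member passed with a change of at least 0.5 in this contrast, a size that 0.98% of tested genes reached upward and 1.07% downward. In bulk tissue, more or fewer astrocytes and more or less RNA per astrocyte cannot be told apart. Of the 11 genes that rose, Agt, Apoe, Hepacam and Atp1b2 kept a positive sign in the TPM as deposited (0.02, 0.04, 0.02 and 0.00, none past the threshold), and the other 7 turned negative there. Of these 7, Aldh1l1, Gjb6, Aldoc, Ntsr2, Acsbg1 and Clu passed as lower (adjusted p 0.00626 to 0.0487, limma), and Sox9 did not (adjusted p = 0.256).

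**Figure D3:**
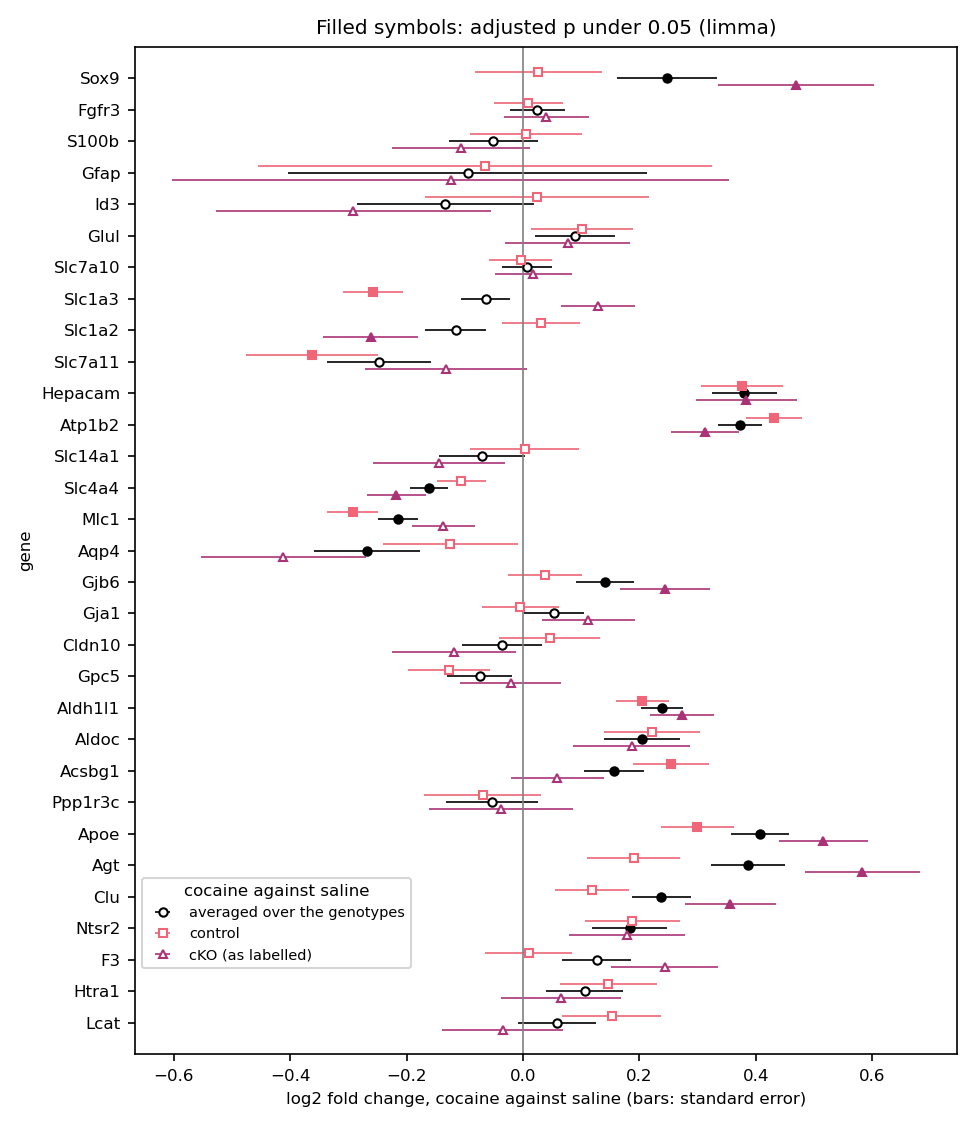
Log2 fold change of cocaine against saline (horizontal axis, bars of 1 SE) for the 31 genes (vertical axis), averaged over the genotypes (circles), in control (squares) and in cKO as labelled (triangles), with filled symbols where limma gave an adjusted p under 0.05. On the scaled TPM 11 genes lie higher and 3 lower in the averaged contrast. In the TPM as deposited, whose median over all genes is lower by 0.34 after cocaine, 0 are higher and 25 lower.

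Of the 7 secreted proteins and signalling molecules 4 (57.1%) rose in the averaged contrast on the scaled TPM, beside 16.2% of all tested genes, with a median of 0.18, although Clu and Ntsr2 turned negative in the TPM as deposited. Apoe (chr7:19696109-19699188, minus strand), the main lipid carrier made by astrocytes, was at 637, 645, 613 and 591 scaled TPM in control saline and at 742, 743, 801 and 774 in control cocaine. It was at 561, 572, 488 and 617 in cKO saline and at 771 and 826 in cKO cocaine. Every cocaine library lay above every saline library. Apoe rose by 0.30 in control (SE 0.06, adjusted p = 0.00499, limma) and by 0.52 in cKO (SE 0.08, adjusted p = 0.000992), 0.41 averaged (SE 0.05, adjusted p = 8.56e-05). In the TPM as deposited the control change had the other sign (-0.07), and with quantile normalization it was 0.07 with an adjusted p of 0.52.

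Agt (chr8:124556534-124569706, minus strand) encodes angiotensinogen, which in the brain is made largely by astrocytes. It was at 54.9, 71.7, 60.2 and 60.9 scaled TPM in control saline and at 69.9, 64.4, 79.1 and 69.0 in control cocaine, where the groups overlapped. In cKO it was at 54.4, 47.7, 50.4 and 48.9 after saline and at 71.9 and 79.5 after cocaine, without overlap. The change was 0.58 in cKO (SE 0.10, adjusted p = 0.00199, limma), 0.19 in control (SE 0.08, adjusted p = 0.104) and 0.39 averaged (SE 0.06, adjusted p = 0.000617). The difference between the genotypes did not pass (interaction 0.39, SE 0.13, adjusted p = 0.118), and the cKO value was 0.21 with an adjusted p of 0.0944 in the TPM as deposited.

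Clu, the extracellular chaperone clusterin, spanned 167 to 215 scaled TPM after saline and 206 to 248 after cocaine. It rose by 0.24 averaged (SE 0.05, adjusted p = 0.00326, limma) and by 0.36 in cKO (SE 0.08, adjusted p = 0.00773), the latter with an adjusted p of 0.0552 when cKO cocaine replicate 1 was left out. Ntsr2, a neurotensin receptor found on astrocytes, rose by 0.18 averaged (SE 0.06, adjusted p = 0.0438), and this call was lost in 9 of the 14 fits that left out a library (adjusted p 0.0566 to 0.157). F3 (tissue factor), Htra1 (a secreted protease) and Lcat (which esterifies cholesterol on lipoproteins) had averaged changes of 0.13, 0.11 and 0.06 and did not pass.

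The 6 genes of water, ion and urea transport split in the averaged contrast on the scaled TPM, with 2 rises and 3 falls. These are 33.3% and 50%, beside 16.2% and 16.4% of all tested genes. Atp1b2 (chr11:69599736-69605942, minus strand), a beta subunit of the sodium and potassium pump, had the smallest adjusted p of the 31 genes. It was at 140, 148, 141 and 145 scaled TPM in control saline and at 176, 202, 199 and 198 in control cocaine. It was at 158, 146, 161 and 148 in cKO saline and at 189 and 192 in cKO cocaine. No cocaine library overlapped a saline library. The change was 0.43 in control (SE 0.05, adjusted p = 0.000146, limma), 0.31 in cKO (SE 0.06, adjusted p = 0.00327) and 0.37 averaged (SE 0.04, adjusted p = 2.52e-05). In the TPM as deposited the cKO change had the other sign (-0.06) and the control change was 0.06 (adjusted p = 0.461).

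Hepacam (chr9:37367351-37386575, plus strand) encodes the adhesion protein GlialCAM, which holds Mlc1 at contacts between astrocytes, and was counted here beside it. It was at 19.8, 22.2, 20.1 and 20.6 scaled TPM in control saline and at 23.1, 26.8, 30.6 and 27.9 in control cocaine. In cKO it was at 23, 21.6, 21.2 and 22 after saline and at 27.7 and 29.8 after cocaine. All cocaine libraries lay above all saline libraries, though control cocaine replicate 1 (23.1) and cKO saline replicate 1 (23) nearly touched. Hepacam rose by 0.38 in control (SE 0.07, adjusted p = 0.00273, limma) and by 0.38 in cKO (SE 0.09, adjusted p = 0.00882). Without cKO cocaine replicate 2 the cKO change was 0.34 with an adjusted p of 0.103, and in the TPM as deposited both changes were 0.01 and 0.02.

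Mlc1 (chr15:88955884-88979007, minus strand), the membrane protein that partners Hepacam, moved the other way. It was at 44.4, 44.5, 44.4 and 43.8 scaled TPM in control saline and at 35.9, 34.8, 38.3 and 35.2 in control cocaine, with no overlap. In cKO saline it was at 40.1, 43.6, 38.5 and 42.9, and in cKO cocaine at 38.5 and 36.4, where the groups met. Mlc1 fell by 0.29 in control (SE 0.04, adjusted p = 0.000808, limma) and by 0.21 averaged (SE 0.03, adjusted p = 0.000577), and these calls held under every alternative tried other than a fold change minimum of 0.5. In cKO the change was -0.14 (SE 0.05, adjusted p = 0.0927).

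Slc4a4, the sodium bicarbonate cotransporter, spanned 39.2 to 46.0 scaled TPM after saline and 36.7 to 40.7 after cocaine. It fell by 0.16 averaged (SE 0.03, adjusted p = 0.0025, limma), also under those alternatives, and by 0.22 in cKO (SE 0.05, adjusted p = 0.0107). The cKO call was lost without cKO cocaine replicate 1 or 2, with adjusted p values of 0.0655 to 0.084. Aqp4 (chr18:15389496-15410982, minus strand), the water channel of the endfeet, was at 26.2, 23.8, 25.5 and 23.9 scaled TPM in control saline and at 26.0, 21.6, 25.3 and 18.8 in control cocaine. It was at 26.3, 28.7, 22.4 and 30.9 in cKO saline and at 22.9 and 17.6 in cKO cocaine. The groups overlapped. Its averaged change of -0.27 (SE 0.09, adjusted p = 0.04, limma) was lost in 9 of the 14 fits that left out a library (adjusted p 0.0528 to 0.266), and removal of GC content and length trends brought it to -0.14. Slc14a1 did not pass (-0.07 averaged).

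**Figure D4:**
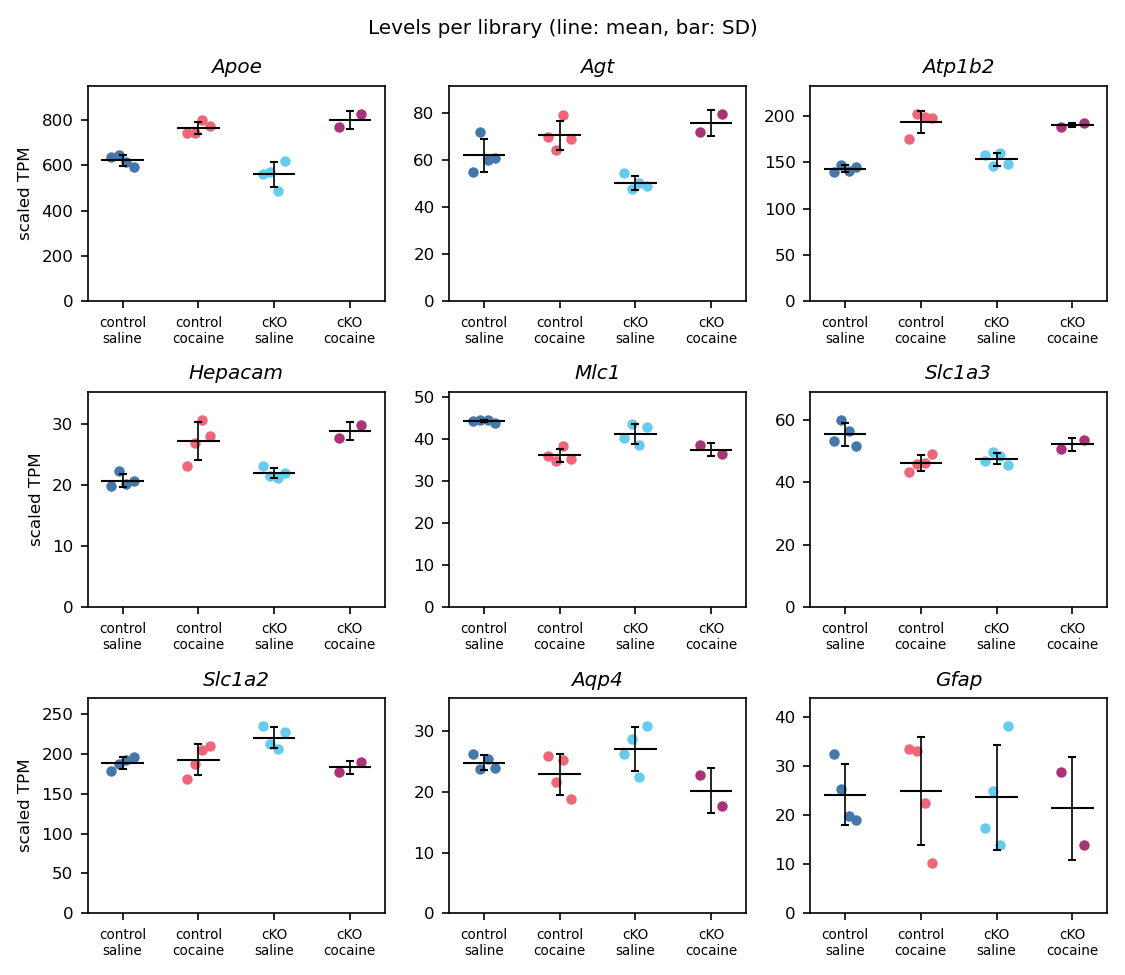
Scaled TPM (vertical axis, from 0) of 9 genes in each library (points) by group (horizontal axis), with the group mean (line) and SD (bar). Apoe, Atp1b2 and Hepacam lie higher in every cocaine library on this scale, whereas in the TPM as deposited their averaged changes are 0.04, 0.00 and 0.02. Slc1a3 is lower in control cocaine and cKO saline than in control saline, and Gfap spreads widely in each group.

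A ratio of 2 genes inside a library does not depend on the scaling, and is given here as a description. Mlc1 to Hepacam was 2.01 ± 0.176 (SD, n = 8) after saline, with a range of 1.74 to 2.24, and 1.33 ± 0.124 (SD, n = 6) after cocaine, with a range of 1.22 to 1.55. Atp1b2 to Slc4a4 was 3.22 to 3.65 after saline and 4.65 to 5.51 after cocaine. Apoe to Aqp4 was 19.9 to 27.2 after saline and 28.6 to 46.8 after cocaine. For these pairs, which were chosen after the values were seen for their opposite changes, the ranges did not touch. The gap junction pair Gja1 to Gjb6 spanned 2.33 to 3.11 after saline and 2.16 to 2.92 after cocaine, and these ranges overlapped.

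**Figure D5:**
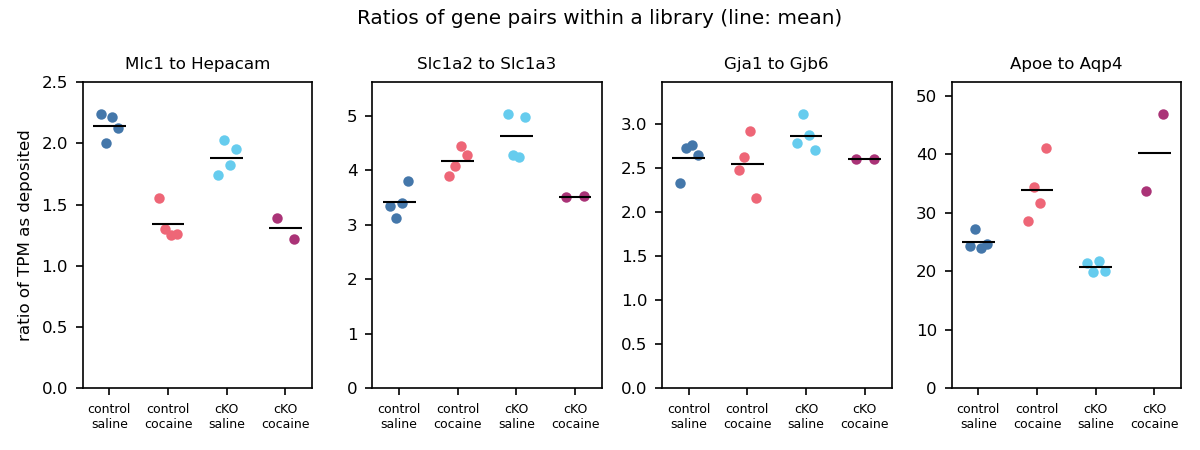
Ratio of the TPM as deposited of 4 gene pairs (vertical axis, from 0) in each library (points) by group, with the mean (line). Mlc1 to Hepacam is 1.74 to 2.24 in the saline and 1.22 to 1.55 in the cocaine libraries, and Slc1a2 to Slc1a3 spans 3.13 to 3.80 in control saline but 4.25 to 5.03 for cKO mice given saline.

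None of the 5 genes of glutamate and amino acid transport passed in the averaged contrast by limma. It gave 0 higher and 0 lower, beside 16.2% and 16.4% of all tested genes, with an unadjusted p under 0.05 for Slc1a2 and Slc7a11. In the separate genotypes 3 passed, all as lower. They were Slc1a3 and Slc7a11 in control (40%, beside 10.2% of all tested genes) and Slc1a2 in cKO (20%, beside 11.6%). Slc1a3 (chr15:8634124-8710764, minus strand) was at 53.3, 59.9, 56.5 and 51.6 scaled TPM in control saline and at 43.3, 45.9, 46.2 and 49.2 in control cocaine. It was at 46.8, 49.6, 48.5 and 45.6 in cKO saline and at 50.6 and 53.7 in cKO cocaine. Control cocaine lay below control saline, and cKO cocaine above cKO saline, without overlap. Slc1a3 fell by 0.26 in control (SE 0.05, adjusted p = 0.00416, limma) and changed by 0.13 in cKO (SE 0.06, adjusted p = 0.176). It was the member whose cocaine difference itself differed by genotype label, with an interaction of 0.39 (SE 0.08, adjusted p = 0.0443), where 0.549% of all tested genes were higher and 0.802% lower. That call was lost in 11 of the 14 fits that left out a library (adjusted p 0.0555 to 0.136) and with genotypes taken from the tags (0.22, adjusted p = 0.791). The groups with the lower Slc1a3, control cocaine and cKO saline, were also those with the lower Maged1, and the part of the genotype labels in this was not tested. Ependymal markers differed by genotype label in the same direction, with a median interaction of 1.59 over 12 genes, of which 0 passed in limma and 10 had an unadjusted p under 0.05, and 4 of 8 hypothalamus markers passed as higher in the interaction. The part of these in the Slc1a3 value was not tested.

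Slc1a2 (chr2:102658659-102790784, plus strand) was at 178, 188, 192 and 196 scaled TPM in control saline and at 169, 187, 206 and 211 in control cocaine. It was at 235, 212, 206 and 227 in cKO saline and at 178 and 189 in cKO cocaine. cKO cocaine lay below cKO saline without overlap, and control groups overlapped. The change was -0.26 in cKO (SE 0.08, adjusted p = 0.0399, limma), lost in 9 of the 14 fits that left out a library (adjusted p 0.0502 to 0.253), and 0.03 in control (SE 0.07, adjusted p = 0.771). The ratio of Slc1a2 to Slc1a3 was 3.13 to 3.80 in control saline and 3.90 to 4.45 after cocaine, and in cKO it was 4.25 to 5.03 after saline against 3.51 and 3.53 with cocaine. Slc7a11, the cystine and glutamate exchanger, fell by 0.36 in control (SE 0.11, adjusted p = 0.0355), and 8 of the 14 fits without a library lost this call (adjusted p 0.0506 to 0.105). Glul, which makes glutamine, and Slc7a10, a carrier of serine and other small neutral amino acids, had averaged changes of 0.09 and 0.01 and passed in no contrast.

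Of the 4 metabolic enzymes 3 (75%) rose in the averaged contrast on the scaled TPM, beside 16.2% of all tested genes. All 3 turned negative in the TPM as deposited. Aldh1l1 (chr6:90486427-90600203, plus strand), an enzyme of folate metabolism, was at 14.5, 13.3, 14.2 and 13.4 scaled TPM in control saline and at 15.3, 15.9, 16.7 and 16.2 in control cocaine. It was at 12.5, 13.2, 12.7 and 13.7 in cKO saline and at 15.3 and 16.5 in cKO cocaine. Every cocaine library was above every saline library. The change was 0.21 in control (SE 0.05, adjusted p = 0.00648, limma), 0.27 in cKO (SE 0.06, adjusted p = 0.00512) and 0.24 averaged (SE 0.04, adjusted p = 0.000333), and without cKO cocaine replicate 2 the cKO change was 0.22 with an adjusted p of 0.0858. Aldoc, the brain aldolase of glycolysis, rose by 0.20 averaged (SE 0.07, adjusted p = 0.0288), and Acsbg1, which activates long-chain fatty acids, by 0.16 (SE 0.05, adjusted p = 0.0336). Each of these calls was lost in 3 of the 14 fits without a library, in both cases without cKO saline replicate 2 and without cKO cocaine replicate 2, where in addition cKO saline replicate 3 decided Aldoc and cKO saline replicate 4 decided Acsbg1. Adjusted p reached 0.104 for Aldoc and 0.141 for Acsbg1. Ppp1r3c, a glycogen-targeting subunit of a phosphatase, changed little (-0.05, adjusted p = 0.65).

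Gap junction, adhesion and surface genes held 1 rise in 4 (25%) in the averaged contrast on the scaled TPM, beside 16.2% of all tested genes. Gja1 (chr10:56377330-56402513, plus strand), connexin 43, spanned 49.3 to 60.6 scaled TPM after saline, with a median of 55.5, and 52.4 to 62.2 after cocaine, with a median of 57.3. Its averaged change was 0.05 (SE 0.05, adjusted p = 0.461, limma). Gjb6, connexin 30, rose by 0.14 averaged (SE 0.05, adjusted p = 0.0452), a value that was -0.22 in the TPM as deposited and lost its call in 9 of the 14 fits without a library (adjusted p 0.0528 to 0.112). Cldn10, a claudin, and Gpc5, a heparan sulfate proteoglycan, were at -0.04 and -0.07 and did not pass.

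Among the 5 identity factors and filament genes, Sox9 passed, at 0.25 averaged (SE 0.09, adjusted p = 0.0431, limma) and 0.47 in cKO (SE 0.13, adjusted p = 0.0269), and its averaged value was -0.10 in the TPM as deposited. The averaged call was lost in 9 and the cKO call in 5 of the 14 fits without a library. Gfap (chr11:102887336-102900912, minus strand), the intermediate filament that rises in reactive astrocytes, was at 32.6, 25.4, 19.9 and 18.9 scaled TPM in control saline and at 33.6, 33.1, 22.6 and 10.2 in control cocaine. It was at 17.5, 25.0, 13.9 and 38.2 in cKO saline and at 28.8 and 14 in cKO cocaine. The groups overlapped throughout. Its averaged change was -0.09 with an SE of 0.31 (adjusted p = 0.848), so that changes of the size seen for Apoe were not detectable for Gfap here. Within groups the SD of Gfap was 0.62 on the log2 scale, at the 97.6th percentile of all tested genes, and that of Id3, an inhibitor of DNA binding downstream of BMP signals, was 0.31 (92.7th percentile). The median within-group SD of the 31 genes was 0.11, the same as over all tested genes (0.11). S100b and Fgfr3, a calcium-binding protein and a growth factor receptor, were at -0.05 and 0.02 averaged and did not pass.

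By genotype as labelled, 5 members rose and 3 fell in control cocaine against control saline on the scaled TPM (background 13.9% and 10.2% of tested genes), and 8 rose and 2 fell in cKO (8.63% and 11.6%), whereas in the TPM as deposited 0 rose in either genotype and 21 and 19 fell. In the TPM as deposited the median change was -0.33 in control and -0.31 in cKO, beside -0.34 and -0.35 over all tested genes. The shares of all tested genes that passed there are not reported here. On the scaled TPM the median change was 0.03 in control and 0.06 in cKO, beside -0.00 and -0.01 over all tested genes. Only Apoe and Agt, both in cKO, passed with a change of at least 0.5, where 1.76% of tested genes did so upward and 1.3% downward, beside 1.4% and 1.67% in control. Aldh1l1, Apoe, Atp1b2 and Hepacam passed in both genotypes. Acsbg1, Mlc1, Slc1a3 and Slc7a11 passed in control alone and Agt, Clu, Gjb6, Slc1a2, Slc4a4 and Sox9 in cKO alone, and of these 10 genes the difference between the genotypes passed its own test for Slc1a3. The shares of all tested genes that passed in both genotypes or in 1 alone are not reported here, so these sets are a description. With 2 cKO cocaine libraries the cKO result leaned on each of them, as the number of rises fell from 8 to 4 without replicate 2 and to 5 without replicate 1. All 6 cocaine libraries lay above all 8 saline libraries for 4 of the 31 genes (12.9%, background 5.37%), Aldh1l1, Atp1b2, Hepacam and Apoe, and below them for 0 (background 5.33%).

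Markers of other cells and of neighbouring structures also moved within each genotype label on the scaled TPM. Of all tested genes 13.9% rose and 10.2% fell in control, and 8.63% and 11.6% in cKO. In control cocaine against control saline 6 of 10 neuron markers rose (median 0.18) and 2 of 10 oligodendrocyte markers rose (median 0.29). In the same comparison 4 of 8 hypothalamus markers fell (median -1.59), and all 12 tested ependymal markers had negative values (median -0.70), of which 0 passed in limma and 4 had an unadjusted p under 0.05. In cKO 0 neuron markers passed in limma (4 at an unadjusted p under 0.05, median 0.03) and 0 oligodendrocyte markers did (3 at an unadjusted p under 0.05, median -0.22), while 4 of 9 tested endothelial and mural markers fell (median -0.03). There all 12 ependymal markers had positive values (median 0.97), of which the cilia gene Rsph1 passed (1.25, SE 0.39, adjusted p = 0.0371, limma). Habenula markers had a median of -0.40 in control and of 0.78 in cKO, and 0 of 6 passed in limma in either, with 0 at an unadjusted p under 0.05. Their part in the astrocyte changes of each genotype was not tested.

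Between genotypes no member passed after either treatment. For cKO saline against control saline limma gave 0 higher and 0 lower (background 0.0668% and 0.0891%), with 8 members at an unadjusted p under 0.05, a smallest adjusted p of 0.0901 (Slc1a3, -0.21) and changes from -0.29 (Agt) to 0.22 (Slc1a2). For the libraries labelled cKO cocaine against control cocaine it gave 0 higher and 0 lower (background 0.0223% and 0.052%), with 2 members, Slc1a3 and F3, at an unadjusted p under 0.05 and a smallest adjusted p of 0.322. These comparisons share their control libraries with the cocaine comparisons. In cKO saline against control saline all 10 oligodendrocyte markers were higher (median 0.45) and all 12 tested ependymal markers lower (median -0.88). None of these passed in limma, and 10 and 8 had an unadjusted p under 0.05. The hypothalamus marker Oxt passed as lower (-5.06, SE 0.77, adjusted p = 0.0183, limma). The part of these markers in the member values was not tested.

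Other genes of astrocytes were read for context. Of 40 further astrocyte genes 39 were tested, of which 8 rose and 2 fell in the averaged contrast, with a median of 0.04. These are 20.5% and 5.13%, beside 16.2% and 16.4% of all tested genes. The metallothioneins Mt1 and Mt2, which bind zinc and copper, rose on the scaled TPM and kept that sign in the TPM as deposited, where their changes were 0.18 and 0.23. Mt1 was at 145 to 170 scaled TPM in the 8 saline and 209 to 238 in the 6 cocaine libraries, a rise of 0.55 (SE 0.04, adjusted p = 1.15e-06, limma). Mt2 went from 73.8 to 91.7 up to 100 to 136, a rise of 0.60 (SE 0.07, adjusted p = 4.82e-05). The fatty acid binding protein Fabp7 was at 29.8 to 37.0 after saline and 19.1 to 33.9 after cocaine and fell by 0.52 (SE 0.10, adjusted p = 0.00217), and the Notch target Hes5 fell by 0.34 (SE 0.07, adjusted p = 0.00225). Rgma, a guidance molecule, rose by 0.27 (SE 0.04, adjusted p = 0.000266) and had a value of -0.09 in the TPM as deposited.

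Of 34 genes described in reactive astrocytes 13 were tested, and 1 of them rose in the averaged contrast, the small heat shock protein Hspb1 (0.38, SE 0.12, adjusted p = 0.0291, limma, and 0.03 in the TPM as deposited), and 0 fell. The 1 rise is 7.69% of the 13, beside 16.2% of all tested genes, and their median was 0.09. In control 1 of the 13 rose (7.69%, beside 13.9% of all tested genes) and 0 fell. This was Cd44, a hyaluronan receptor, with a change of 0.48 (SE 0.16, adjusted p = 0.0442, limma). Cd44 was near the filter of 1 TPM, at 1.30 to 1.60 scaled TPM in control saline and 1.78 to 2.86 in control cocaine. Its change in cKO was -0.38 (adjusted p = 0.193), and the difference between the genotypes did not pass (interaction -0.86, SE 0.25, adjusted p = 0.092). Genes of lactate and glycogen handling were read as well. The lactate and pyruvate carrier Slc16a7, which is mainly neuronal, fell by 0.38 (SE 0.06, adjusted p = 0.000572). The subunit Ldhb of lactate dehydrogenase, the glycogen synthase Gys1 and the muscle-type glycogen phosphorylase Pygm, which astrocytes also express, rose by 0.15, 0.16 and 0.18 (adjusted p = 0.0117, 0.0249 and 0.0426), and all 3 had negative values in the TPM as deposited (-0.22, -0.17 and -0.18).

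Markers of other cells of the tissue moved as follows in the averaged contrast, where 16.2% of all tested genes rose and 16.4% fell. Of 10 neuron markers 3 rose and 0 fell, with a median of 0.09 and summed levels of 1348 to 1658 scaled TPM after saline and 1482 to 1753 after cocaine. None of 10 oligodendrocyte markers passed in limma (0 adjusted, 1 at an unadjusted p under 0.05, median 0.06), while 1 of 4 tested oligodendrocyte precursor markers rose. Of 9 tested endothelial and mural markers 2 fell, Slco1a4 (-0.32, adjusted p = 0.00169) and Cldn5 (-0.30, adjusted p = 0.0142). Of 8 hypothalamus markers 3 fell, with Avp at 0.763 to 73.9 scaled TPM after saline and 0.465 to 4.06 after cocaine. These 3 passed in control alone, where Avp, Oxt and Gal changed by -5.08, -7.90 and -1.46. In cKO they changed by -0.41, 2.49 and 0.39 and did not pass. None of the 12 tested ependymal, 6 habenula and 4 tested choroid plexus markers passed in limma, with 0 at an unadjusted p under 0.05. This is an average over changes that in each of these lists were all negative in control and all positive in cKO. Without control cocaine replicate 4 and cKO saline replicate 1, the libraries lowest in ependymal and habenula genes, 11 astrocyte genes rose and 2 fell, and 5 of the single-gene calls named above were lost. They were the averaged calls of Aqp4 (-0.22, adjusted p = 0.0907) and Ntsr2 (0.21, adjusted p = 0.0515), Slc7a11 in control (-0.33, adjusted p = 0.109), Slc1a2 in cKO (-0.22, adjusted p = 0.0768) and the interaction of Slc1a3 (0.41, adjusted p = 0.0829). The part of the other cell types in the astrocyte values was not tested.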

How the data were processed

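The authors deposited 1 table of TPM per library, with a gene symbol in each line. The methods of the study and the submitters' processing notes state that reads of ribosomal RNA-depleted, strand-specific libraries were aligned to GRCm38.p4 (mm10) with STAR 2.5.3a, quantified with Salmon and summarized per gene. In 2 of the deposited tables the TPM carry a decimal comma and were read with a decimal point (recorded unit: other). TPM keep no read counts, so the depth of each library and its counting error are unknown from these values, and the spread between libraries sets the precision. The listed genes sum to 312659 to 377401 TPM per library.

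The series has 15 samples, of which 14 were analysed and 1 of cKO cocaine was not analysed here. Titles set the groups, and the labels describe the replicates as independent samples. TPM were divided by unweighted TMM factors (30% of log ratios and 5% of mean values trimmed at each end), 0.5 was added and log2 was taken, which makes fold changes of low genes smaller than they are. The 13471 genes that reached 1 TPM in 3 or more libraries were fitted in limma 3.58.1 (R 4.3.3), with 1 mean per group and a variance trend on the level. The 6 contrasts were adjusted separately over all tested genes at 0.05. This replaces the count-based test of the study's methods, since TPM are no counts. The procedure was tested on simulated data. Other steps used Python 3.11.15, numpy 2.4.6, pandas 2.3.3 and scipy 1.17.1, and figures matplotlib 3.10.9. Gene coordinates are from GENCODE M21 (GRCm38) and promoters from RefSeq.

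Values of every library were to be given for genes with an adjusted p under 0.05 and a log2 fold change of 0.5 or more in size (Apoe and Agt) and for Gfap, Aqp4, Slc1a2, Slc1a3, Aldh1l1 and Gja1. For Gja1 ranges and medians are given instead. Atp1b2, Hepacam and Mlc1 were added after their values were seen. At most 5 genes of each other list, by adjusted p, were to be named, and some of these results are not reported here. The members and lists were chosen with earlier results of these data known. Results were recomputed with unscaled TPM, with median-of-ratios or quantile scaling, with removal of the 5 highest genes, pseudocounts of 0.1 and 1, no filter or one at a mean of 5 TPM, only the groups compared in the fit, no trend, a replicate block, genotypes from the tags, the 10 libraries whose labels agree, removal of GC content and length trends (97.9% of tested genes and all 31 members had both), a fold change minimum, and leaving out libraries.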

Additional observations from a re-analysis of the deposited data

Results flagged for a closer look

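In groups of 4 libraries, 6 of 93 groups of values held a library set apart from the other 3 by Dixon's criterion, where chance gives about 1 in 20. Control cocaine replicate 1 was low for Aldoc (165.7 scaled TPM, the others 197 to 204) and for Atp1b2 (175.5, the others 198 to 202). Control saline replicate 1 was low for Acsbg1 (30.895, the others 36.4 to 37.1) and high for Lcat (10.005, the others 8.93 to 8.98) and Id3 (25.76, the others 15.2 to 15.7). cKO saline replicate 4 was low for Slc7a10 (13.97, the others 15.01 to 15.14).

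The cocaine difference of Slc1a3 differed between the genotypes as labelled, by 0.3866 on the log2 scale (limma interaction, adjusted p = 0.0443). It was lower after cocaine in 4 of 4 control libraries and higher in 2 of 2 cKO libraries, relative to the saline libraries of the same label. Maged1 went against the labels of the cocaine libraries, and its part in this difference was not tested.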

How the results depend on the processing

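Numbers below are members higher and lower in control, in cKO and averaged, in that order, beside 5 and 3, 8 and 2, and 11 and 3. The shares of all tested genes under each alternative are not reported here. The counts thus show how the calls move and do not set astrocyte genes apart from other genes. TPM as deposited gave 0 and 21, 0 and 19, and 0 and 25, with medians of all tested genes at -0.34, -0.35 and -0.34. Quantile normalization gave 3 and 4, 8 and 2, and 6 and 5. The 10 libraries with agreeing labels gave 1 and 2, 2 and 0, and 6 and 2. A fold change minimum of 0.5 gave 0 and 0, 2 and 0, and 0 and 0. Removal of GC content and length trends gave 3 and 2, 6 and 0, and 8 and 2. Genotypes from the tags gave 1 lower in control. In cKO 1 was lower with the 5 highest genes removed, without a filter, without a trend, with genotypes from the tags, and without control cocaine replicate 4 and cKO saline replicate 1. The cause of these shifts was not tested.

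The interaction call (1 member) became 0 with TPM as deposited, without a filter, without a trend, with genotypes from the tags, with agreeing labels, without those 2 libraries and with the fold change minimum. Leaving out single libraries gave 5 to 7 higher and 2 to 3 lower in control, 4 to 8 and 0 to 4 in cKO, 6 to 11 and 2 to 4 averaged, and 0 to 1 for the interaction. The lowest averaged count, 6, came without cKO cocaine replicate 2. Without the cKO cocaine group, an alternative chosen after seeing the data, control had 5 higher and 2 lower. Both comparisons between genotypes gave 0 members under every alternative run, also without any single library (0 to 0).

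In the TPM as deposited the following changes reversed. In control they were -0.15 for Aldh1l1, -0.11 for Acsbg1 and -0.0701 for Apoe. In cKO they were -0.0868 for Aldh1l1, -0.12 for Gjb6, -0.0585 for Atp1b2 and -0.0155 for Clu. Averaged they were -0.12 for Aldh1l1, -0.22 for Gjb6, -0.17 for Aldoc, -0.10 for Sox9, -0.18 for Ntsr2, -0.21 for Acsbg1 and -0.13 for Clu. The control value of Aldh1l1 and the averaged values other than that of Sox9 also passed as lower there. Of 33 single-gene results, 3 (Mlc1 in control and averaged, Slc4a4 averaged) kept direction and call under every alternative run other than the fold change minimum, and over all alternatives 756 values kept both, 179 lost the call and 14 reversed.

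Replicate numbers did not pair the libraries. The deviations of 18 same-numbered pairs correlated at -0.014 on average (-0.165 to 0.103), and 3 of 14 libraries correlated best with their own number. With a replicate block 5 and 3, 7 and 1, and 10 and 3 members passed, and 0 for the interaction. Depth is unknown from TPM.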
